A study of Mus musculus with 12 samples.

Results

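This account describes the genes whose expression differed between mouse lung tumors taken 48 h after a mutant oncogene was switched off and lung tumors in which it was still on. The 8 arrays of these groups, 4 in each, were chosen by their sample labels from the 12 arrays of the series. All 8 came from mice of an FVB/SV129 background that were 19 weeks old, and from tumors that were microdissected from the lung and snap-frozen. The oncogene was present in every group, and the controls are tumors with it on (0 h). The remaining 4 arrays, from tumors taken at 24 h, entered the same model and are used only to show where the state at 48 h differed from that at 24 h. The labels leave out which promoter drove the oncogene, how it was switched and whether tumors came from separate mice. The p-values therefore reflect only how these tumor samples varied, which may be technical.

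Oncogenes of the growth-signalling pathways keep the mitogen-activated protein kinase (MAPK) cascade active. That cascade induces ETS transcription factors, growth factor ligands and its own inhibitors, the dual-specificity phosphatases and Sprouty proteins. Many of those transcripts are short-lived and are used as a readout of the cascade. Lung adenomas and adenocarcinomas in mice often resemble alveolar type 2 cells, which make surfactant and in normal lung give rise to the flat alveolar type 1 cells.

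RNA was hybridised to a mouse BeadChip array with 1 colour, and each value below is a normalized log2 intensity of 1 probe. A probe was tested if it was detected (detection p below 0.05) on at least 4 of the 8 arrays, which held for 20022 of 45281 probes. The share of probes detected was 43.0% to 43.7% on the arrays with the oncogene on and 43.9% to 45.0% at 48 h. The alveolar type 2 marker Sftpc, surfactant protein C, was among the brightest probes in both groups, at 14.12 ± 0.16 (SD, n = 4) with the oncogene on and 14.27 ± 0.12 at 48 h. The lung epithelial regulator Nkx2-1 was detected in all 8 tumors. In the list of heart and skeletal muscle markers 8 genes were tested. Their summed intensity was 638, 597, 3777 and 7702 with the oncogene on and 1664, 11704, 721 and 7632 at 48 h. High and low arrays occurred in both groups and 0 of the 8 genes passed the test. All 8 differences were above 0 at 48 h, however, with a median of 0.74. The summed intensity of the 24 h arrays ranged from 728 to 1150. Without the 2 arrays of highest muscle marker signal in each of the on and 48 h groups, 216 genes (1.97%) were called higher and 159 (1.45%) lower at 48 h.

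One array stood apart at 48 h. Replicate 3 was the 48 h array nearest to the on mean in 1254 (48.3%) of the 2596 genes called below, against 16.3% to 18.3% for each of the other 48 h arrays. The median called fall was 0.42 in replicate 3, against 0.54, 0.59 and 0.62 in replicates 1, 2 and 4. The on arrays and 48 h replicates 1 and 2 lay on the first BeadChip, and 48 h replicates 3 and 4 lay on the second with all 24 h arrays. Counts within the first BeadChip, which leaves 2 arrays at 48 h, or without replicate 3 are therefore given beside many of the counts below. No 24 h array shared a BeadChip with an on array, so their differences cannot be told apart from differences between BeadChips. In bulk tumor, fewer cells of a type and less RNA per cell cannot be told apart.

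Switching off the oncogene was followed by a broad shift of moderate size. At an adjusted p below 0.05 (limma with Benjamini-Hochberg adjustment), 4422 of 20022 probes (22.1%) differed, of which 2051 (10.2%) were higher and 2371 (11.8%) lower at 48 h. With each gene represented by its brightest probe, 2596 of 10947 genes (23.7%) were called, 1306 (11.9%) higher and 1290 (11.8%) lower. The median size of a called change was 0.56 on the log2 scale with a median SE of 0.13, and the median over all genes was 0.01. Large changes were mostly falls, since 38 genes fell at least 4-fold and 3 rose at least 4-fold, while 203 fell and 167 rose at least 2-fold. All 4 tumors at 48 h lay on one side of all 4 on tumors in 4755 probes (23.7%). Within the first BeadChip 881 genes (8.05%) were called higher and 799 (7.3%) lower, and all 4422 called probes kept their direction there. The arrays of the first BeadChip also entered the fit that called these probes, so the kept direction is not an independent check. Of 194 called genes named here, 47 were not called there, namely Bmpr2, Casp8, Cbr3, Cbx5, Cdc20, Cdk1, Chil1, Ciita, Col3a1, Cox4i1, Cxcr2, Dnajb1, Dnmt3b, F7, Gabarapl2, Gstm1, H2-DMa, H2-DMb1, Hadhb, Hspa1a, Hspb1, Ier3, Kdm6b, Klf6, Lat, Lyve1, Mfap4, Mmp13, Mmp2, Mrc1, Notch3, Per3, Pik3ip1, Plaur, Retnlg, Rpe, Rpl22, Rps2, Shc1, Slc3a2, Sox9, Srebf1, Suclg1, Tk1, Zbtb16, Zeb1 and Zmat3. The shares of 11.9% higher and 11.8% lower are given as a background to the counts of the lists. Members and lists were chosen with earlier results of these data known, so a count above these shares is not a test of a list. Some genes are members of several lists, so the counts of different lists overlap. Without replicate 3, 1466 genes (13.4%) were higher and 1393 (12.7%) lower.

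**Figure D1:**
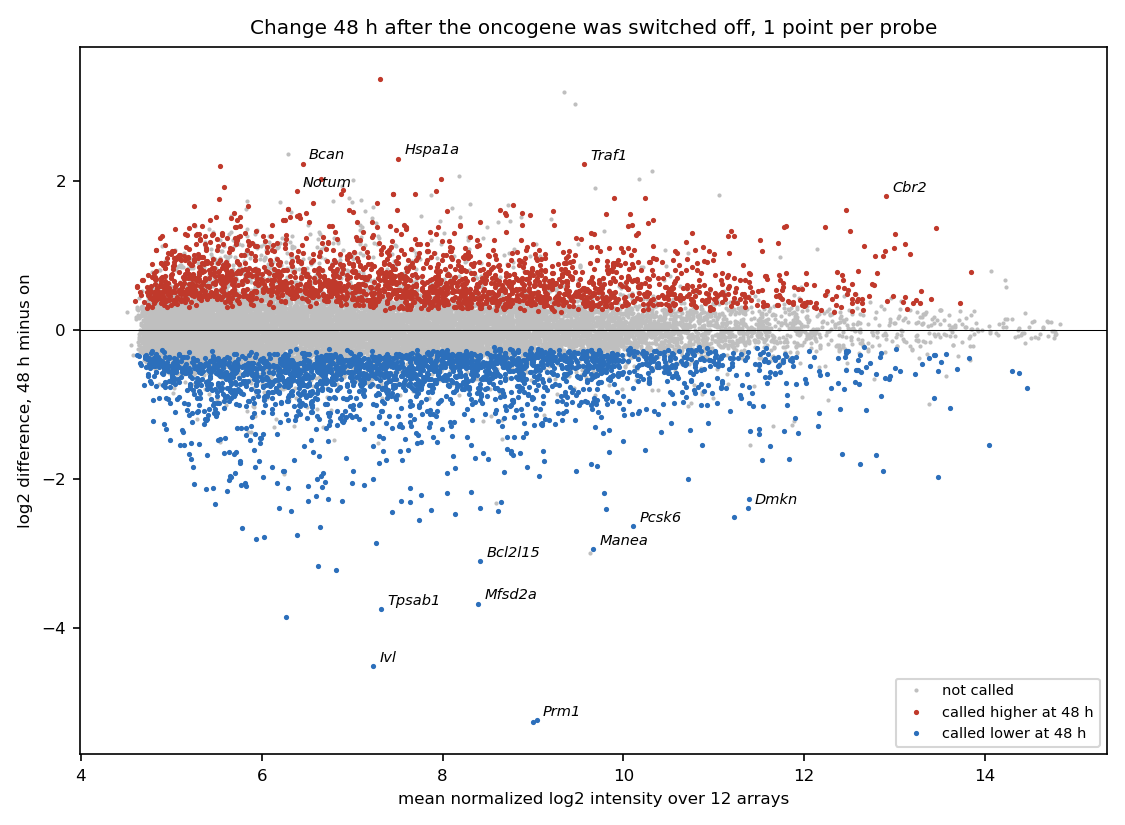
Log2 difference (48 h minus oncogene on) of each tested probe against its mean normalized log2 intensity over 12 arrays. Red points were called higher and blue points lower by limma at 48 h, and grey points were not called. The largest falls, from Prm1 at -5.24 to Ivl at -4.51 and Tpsab1 at -3.75, reach further from 0 than the largest called rises of named genes, Hspa1a, Bcan and Traf1 at 2.30, 2.23 and 2.22.

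The steepest fall was that of Prm1, which encodes protamine 1, a protein that packs DNA in sperm. Its log2 values were 12.86, 13.16, 12.51 and 12.83 with the oncogene on and 7.90, 7.83, 6.93 and 7.75 at 48 h. All 4 tumors at 48 h lay far below every tumor with the oncogene on, and Prm1 fell by 5.24 ± 0.23 (SE, adjusted p = 1.71e-07), a 37.7-fold change. Both Prm1 probes were called lower. Probes for other spermatid genes, chosen after these values were seen, were undetected on all 8 arrays for Prm3, Tnp1, Tnp2 and Akap4, and 1 on array detected Odf1. Prm1 sequence is also in wide use as the 3′ end of mouse transgenes. The construct is not described in the sources used here, and which transcript the Prm1 probes detected was not tested.

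The next steepest falls were in genes of varied function. Ivl, which encodes involucrin of the cornified envelope of squamous epithelia, had log2 values of 10.13, 10.21, 10.05 and 9.64 with the oncogene on and 5.33, 4.59, 7.48 and 4.56 at 48 h. It fell by 4.51 ± 0.61 (SE, adjusted p = 0.000515), and replicate 3 kept the highest level at 48 h without reaching the on values. Ivl was still detected on 2 arrays at 48 h. Mfsd2a, a lysophosphatidylcholine transporter, lay at 10.35, 9.89, 9.09 and 10.14 with the oncogene on and 6.47, 6.39, 6.0 and 5.91 at 48 h. It fell by 3.67 ± 0.23 (SE, adjusted p = 4.26e-06), with no overlap between groups, and at 24 h its difference from the on tumors was -0.74 at 24 h. Pcsk6, a proprotein convertase that cleaves secreted precursors, was at 11.40, 11.78, 11.53 and 11.55 with the oncogene on and 8.83, 8.98, 9.25 and 8.67 at 48 h, and fell by 2.64 ± 0.20 (SE, adjusted p = 1.62e-05). Dmkn, the secreted epidermal protein dermokine, fell by 2.39 ± 0.27 (SE, adjusted p = 0.00022) from one of the highest levels among these genes, a mean log2 value above that of any other gene of the 15 except Prm1.

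Tpsab1, a tryptase of mast cells, gave 7.95, 9.94, 9.88 and 9.86 with the oncogene on and 6.11, 5.28, 6.29 and 4.95 at 48 h. It fell by 3.75 ± 0.85 (SE, adjusted p = 0.00896), although on replicate 1 lay well below the other on tumors. Among the other mast cell genes, Cpa3, Mcpt4, Tpsb2, Cma1 and Ms4a2 were undetected on all 8 arrays. Kit, which mast cells share with other cells, was detected on all 8 and was not called, and Fcer1a was detected on 2 on arrays and 3 at 48 h. The same list also covers eosinophils. Its member Prg2 was detected on 4 on arrays and 1 at 48 h, with means of 6.77 and 5.27, and was not called. Mcpt8 was detected on 2 on arrays and 0 at 48 h, while Epx, Ccr3 and Siglecf were undetected on all 8. Within the first BeadChip 1 of the 3 tested members of the list was called lower. The near-identical Tpsb2 may share the Tpsab1 probe. Sp5, a transcription factor downstream of Wnt signalling, fell by 2.48 ± 0.25 (SE, adjusted p = 0.000111). Bcl2l15, a member of the BCL2 family, fell by 3.11 ± 0.50 (SE, adjusted p = 0.00152), and Manea, a Golgi mannosidase, fell by 2.94 ± 0.23 (SE, adjusted p = 2.24e-05). B3gnt7, a glycosyltransferase of keratan sulfate chains, fell by 2.55 ± 0.42 (SE, adjusted p = 0.00166). Secreted or surface signals of immune cells were in the same group, namely Tnfsf9, the ligand of 4-1BB (-2.64), Cxcl1, a neutrophil-attracting chemokine (-2.45), and the cytokine Il24 (-2.33). Tnfrsf22, a decoy receptor for TRAIL (-2.42), and the collagenase Mmp13 (-2.38) completed the 15. Only 1 array at 48 h still detected Il24, so its size depends on values near background. Mmp13 did not pass within the first BeadChip, where its difference was -2.23 (adjusted p = 0.113).

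The rises were smaller. The largest among called genes, Hspa1a, had overlapping groups and is described with the heat shock genes. Bcan, the proteoglycan brevican, lay at 5.51, 5.38, 4.41 and 6.48 with the oncogene on and 7.69, 7.83, 7.41 and 7.79 at 48 h. It rose by 2.23 ± 0.45 (SE, adjusted p = 0.00497). Traf1, an adaptor of TNF receptors, lay at 8.47, 8.28, 8.51 and 8.63 with the oncogene on and 10.61, 11.03, 10.48 and 10.66 at 48 h. Every tumor at 48 h was above every on tumor by more than the spread within either group, and Traf1 rose by 2.22 ± 0.12 (SE, adjusted p = 1.64e-06). Cbr2, a carbonyl reductase abundant in airway club cells, rose by 1.80 ± 0.21 (SE, adjusted p = 0.000245) from an already high level, 12.55, 11.51, 12.30 and 12.33 with the oncogene on and 14.06, 13.95, 13.72 and 14.17 at 48 h.

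Other rises were in genes of varied function. Notum, a secreted enzyme that inactivates Wnt proteins, rose by 1.86 ± 0.15 (SE, adjusted p = 2.61e-05), and Usp2, a deubiquitinase under circadian control, rose by 1.83 ± 0.31 (SE, adjusted p = 0.00181). Amy2a5, one of a cluster of near-identical amylase genes whose transcripts the probe may share, rose by 1.88 ± 0.23 (SE, adjusted p = 0.000286). Rasl12, a small Ras-like GTPase, rose by 1.78 ± 0.14 (SE, adjusted p = 2.32e-05), and Slc10a6, a transporter of sulfated steroids, by 1.77 ± 0.18 (SE, adjusted p = 0.000131). Snhg11, a host transcript of small nucleolar RNAs, rose by 1.86, and Vpreb3, known from pre-B cells, by 1.83. Fam184a rose by 1.82, the scaffold gene Mpp3 by 1.67, the transcription factor Osr2 by 1.66 and Rassf8, of the Ras-association family, by 1.62. Osr2 was detected on 1 of the 4 on arrays, so its size depends on values near background. Dynlrb2, a dynein light chain, rose by 1.67 ± 0.41 (SE, adjusted p = 0.0132). It missed the threshold when a fold above 1.2 was required (adjusted p = 0.0521), and with Bcan and Fam184a it also missed it without the 4 arrays of highest muscle signal (adjusted p = 0.183, 0.0809 and 0.0687).

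Genes that report MAPK activity fell together. Of 19 tested members of the MAPK list, 14 fell and 0 rose, with a median of -1.2 against 0.01 over all genes, and 18 of 19 differences were below 0. Within the first BeadChip 14 were lower with a median of -1.38, and without replicate 3 15 were lower with a median of -1.35. By array, the median difference of the list from the on mean was -1.34, -1.24, -0.61 and -1.35 at 48 h, so replicate 3 moved less than the others. At 24 h the median of the same list against the on tumors was -1.10. That comparison shares the on arrays, and in it time and BeadChip cannot be told apart.

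Etv4, Etv5 and Etv1 are ETS factors that carry the signal into transcription. Etv4, the steepest fall of the list, was at 7.86, 7.82, 8.18 and 8.40 with the oncogene on and 5.52, 5.57, 6.96 and 5.02 at 48 h. It fell by 2.30 ± 0.38 (SE, adjusted p = 0.0018), and replicate 3 again lay between the other 48 h tumors and the on tumors. Etv5 fell by 1.34 ± 0.22 (SE, adjusted p = 0.00185) and its difference from the on tumors at 24 h was -0.05. Etv1 did not pass in all arrays (-0.61 ± 0.33, adjusted p = 0.208), with replicate 3 at 8.49 above every on value and the other 48 h tumors between 6.62 and 6.78. Without replicate 3, Etv1 passed with a difference of -1.05 (adjusted p = 0.000484), and within the first BeadChip with -1.06 (adjusted p = 0.00842).

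Feedback inhibitors fell as well. Dusp6, a phosphatase that inactivates ERK in the cytoplasm, lay at 12.29, 12.76, 12.55 and 12.61 with the oncogene on and 10.63, 10.87, 11.86 and 10.63 at 48 h. The groups did not overlap and Dusp6 fell by 1.55 ± 0.24 (SE, adjusted p = 0.00125). Dusp4, a nuclear phosphatase of the same family, fell by 1.86 ± 0.36 (SE, adjusted p = 0.00368), and Dusp5 by 1.30 ± 0.25 (SE, adjusted p = 0.00363). Spred2, an inhibitor of RAF activation, fell by 1.07 ± 0.21 (SE, adjusted p = 0.00451), with detection on 2 arrays at 48 h, and the Sprouty family member Spry4 by 0.72 ± 0.20 (SE, adjusted p = 0.0217). Its relative Spred1 missed the threshold, at -0.52 ± 0.17, adjusted p = 0.0516. Phlda1, an early growth factor-induced gene, fell by 1.36 ± 0.34 (SE, adjusted p = 0.0141).

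Ligands, receptors and the cell-cycle target of the cascade followed the same direction. Hbegf, a ligand of the EGF receptor, was at 8.55, 9.35, 9.39 and 8.70 with the oncogene on and 6.35, 6.64, 7.35 and 6.79 at 48 h, and fell by 2.22 ± 0.24 (SE, adjusted p = 0.000178). Lif, a cytokine of the interleukin 6 family, fell by 1.68 ± 0.28 (SE, adjusted p = 0.00165), and 3 of the 4 tumors at 48 h still had it detected. Epha2, an ephrin receptor, fell by 1.2 ± 0.21 (SE, adjusted p = 0.00256). Ccnd1, which encodes the G1 cyclin D1, lay at 12.66, 12.84, 12.78 and 12.95 with the oncogene on and 11.43, 11.28, 12.14 and 11.25 at 48 h, and it fell by 1.29 ± 0.18 (SE, adjusted p = 0.000535). Smaller falls were those of Ier3 (-0.95 ± 0.27, adjusted p = 0.0273) and Plaur, the urokinase receptor (-0.45 ± 0.15, adjusted p = 0.0453), and Plaur passed in only 9 of 25 alternative analyses. Emp1, a membrane protein, showed no change that could be detected (0.03 ± 0.17, adjusted p = 0.928).

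Egr1 and Fos, immediate early transcription factors, were the exception and divided the 48 h tumors. Egr1 lay at 11.47, 11.49, 11.92 and 11.56 with the oncogene on and 10.27, 11.95, 10.37 and 12.90 at 48 h. Replicates 2 and 4 were above every on tumor and replicates 1 and 3 were below every one, and the difference was -0.24 ± 0.46, adjusted p = 0.737. Fos showed the same division, at 8.22, 10.01, 8.34 and 10.89 at 48 h against 9.61, 9.68, 9.43 and 9.81 with the oncogene on. Replicates 2 and 4 were also the 48 h arrays with the highest heart and skeletal muscle signal (11704 and 7632 summed intensity) and the highest Hspa1a, 7.82, 10.43, 8.21 and 10.29 at 48 h. The part of these in the Egr1 and Fos values was not tested.

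**Figure D2:**
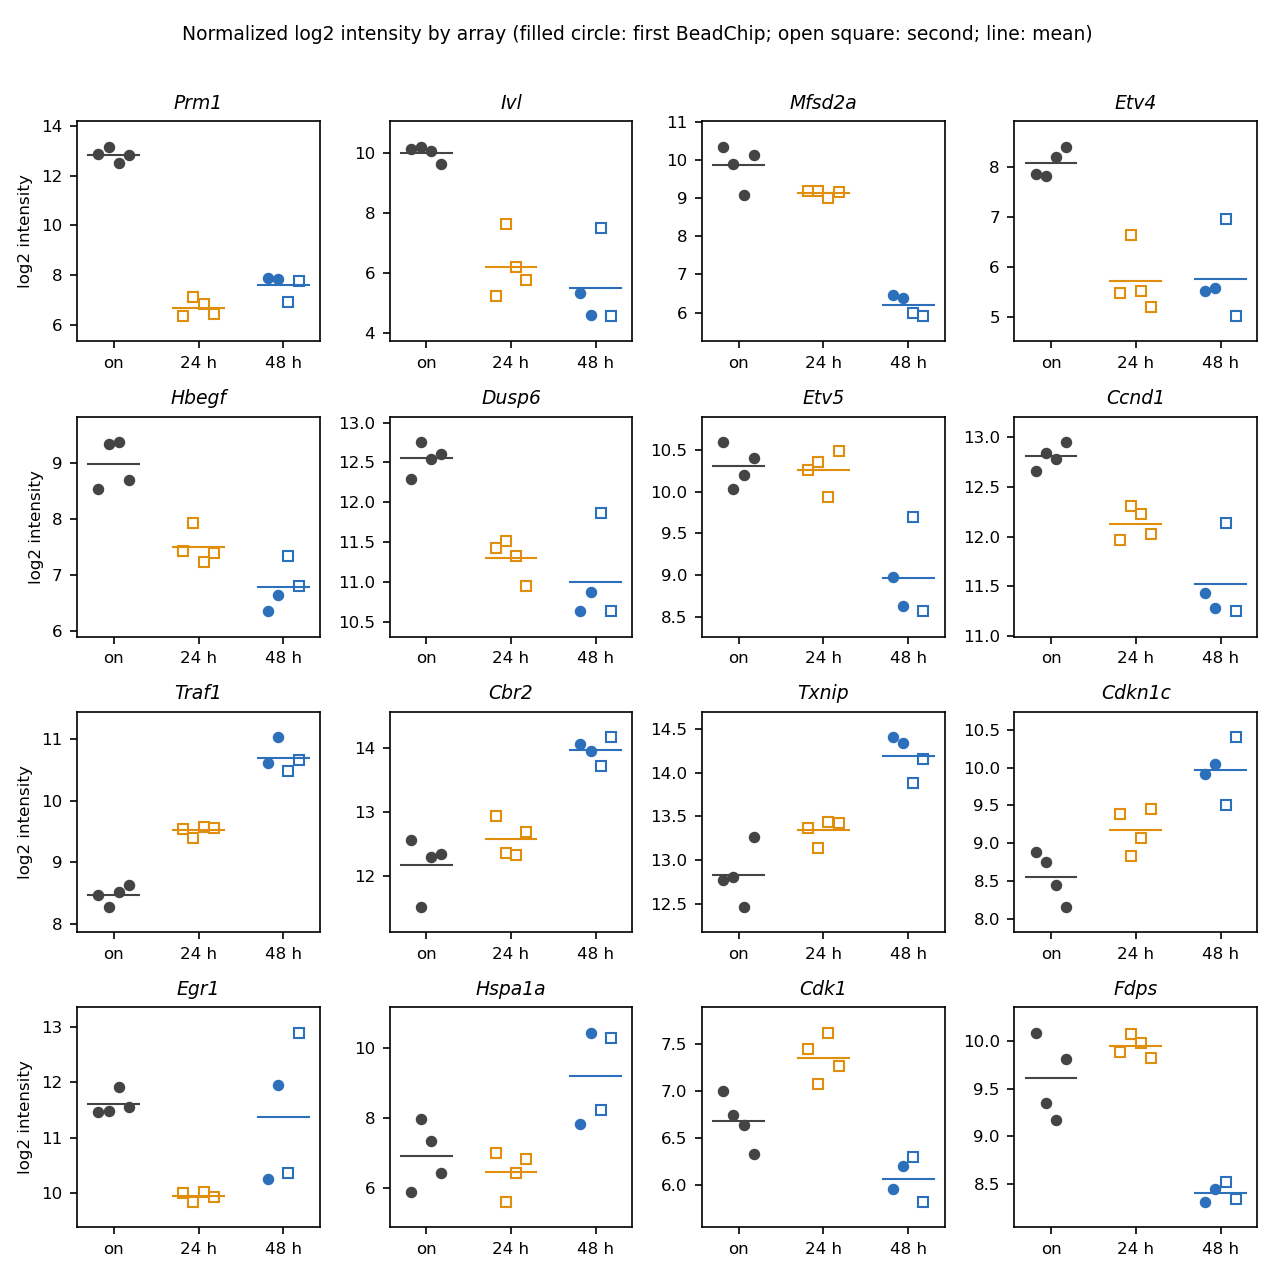
Normalized log2 intensity of 16 genes on each array, with the oncogene on, at 24 h and at 48 h. Filled circles lie on the first BeadChip, open squares on the second, and lines are group means. Etv4, Dusp6 and Ccnd1 are lower at 48 h on every array, whereas the 48 h values of Egr1 lie on both sides of the on values.

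Receptor tyrosine kinases and their adaptors did not follow the list of targets. Of 19 tested, 4 rose and 1 fell (median 0.19). Egfr, the receptor of Hbegf, rose by 1.04 ± 0.21 (SE, adjusted p = 0.00476), with values of 6.16, 6.44, 6.59 and 6.66 with the oncogene on and 7.62, 7.48, 6.99 and 7.93 at 48 h. The insulin receptor gene Insr rose by 0.59 ± 0.10 (SE, adjusted p = 0.00257) and the docking protein gene Gab1 by 0.43 ± 0.11 (SE, adjusted p = 0.015), and the adaptor Shc1 fell by 0.49 ± 0.14 (SE, adjusted p = 0.024). Shc1 did not pass within the first BeadChip, where its difference was -0.42 (adjusted p = 0.102).

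Glycolysis transcripts were lower at 48 h. Of 14 tested glycolysis genes 10 fell and 0 rose, with a median of -0.76, and 9 were lower within the first BeadChip. Ldha, lactate dehydrogenase A, lay at 13.40, 13.37, 13.24 and 13.40 with the oncogene on and 12.20, 12.16, 12.56 and 12.19 at 48 h. It fell by 1.07 ± 0.11 (SE, adjusted p = 0.00015) with no overlap. Pgk1, phosphoglycerate kinase, fell by 1.14 ± 0.16 (SE, adjusted p = 0.00072), and the glucose transporter Slc2a1 by 1.06 ± 0.21 (SE, adjusted p = 0.0041). The other 7 falls, from Gapdh at -1.0 to Aldoa at -0.63, covered steps from hexokinase to phosphoglycerate mutase. Pkm, Pdk1 and Aldoc were not called (-0.37, -0.21 and -0.03), nor was the muscle isoform Pfkm (0.75).

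The promoters of Pgk1 and Ldha are shown because genes of both the glycolysis and the hypoxia lists often hold the core letters of the element that hypoxia-inducible factors bind, ACGTG. On either strand, it occurred in 10 of 14 glycolysis genes and 10 of 10 hypoxia genes that had an entry, against 21.78% of all 27025 genes in the table. Windows run from 250 bases before to 50 after the start of the gene (RefSeq, GRCm38.p6) and capitals mark the letters on either strand, where CACGTG holds them on both strands and is also an E-box. A match is a description of letters and not of a bound site.
Pgk1 (chrX:106186850-106187149, plus strand): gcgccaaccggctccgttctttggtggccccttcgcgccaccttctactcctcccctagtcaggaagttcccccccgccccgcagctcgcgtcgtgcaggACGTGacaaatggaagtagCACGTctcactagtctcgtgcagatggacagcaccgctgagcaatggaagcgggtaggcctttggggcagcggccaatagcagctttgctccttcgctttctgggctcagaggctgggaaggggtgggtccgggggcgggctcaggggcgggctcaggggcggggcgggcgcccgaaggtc
Ldha (chr7:46845554-46845853, plus strand): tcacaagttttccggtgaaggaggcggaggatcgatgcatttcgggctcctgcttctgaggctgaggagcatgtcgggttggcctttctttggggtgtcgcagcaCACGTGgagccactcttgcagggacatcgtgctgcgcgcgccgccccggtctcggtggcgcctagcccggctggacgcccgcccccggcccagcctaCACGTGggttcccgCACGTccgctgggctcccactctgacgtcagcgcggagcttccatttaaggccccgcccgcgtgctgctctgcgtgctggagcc

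Of 14 tested hypoxia response genes, 6 fell and 1 rose (median -0.33). The oxygen-sensing prolyl hydroxylase gene Egln3 lay at 7.40, 8.32, 8.23 and 6.96 with the oncogene on and 5.20, 5.51, 5.66 and 6.03 at 48 h. It fell by 2.13 ± 0.44 (SE, adjusted p = 0.00568). Ankrd37, a small ankyrin repeat gene induced by low oxygen, fell by 1.44 ± 0.28 (SE, adjusted p = 0.00411), and P4ha1, a collagen prolyl hydroxylase, by 1.16 ± 0.25 (SE, adjusted p = 0.0075). Vegfa, the vascular endothelial growth factor, went the other way and rose by 0.65 ± 0.12 (SE, adjusted p = 0.00265), from 11.31, 11.01, 11.31 and 11.02 to 11.83, 12.01, 11.75 and 11.64.

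Genes of nucleotide, serine and one-carbon synthesis also fell, 11 of 17 tested with 0 rises and a median of -0.49. Psat1, of serine synthesis, was the steepest. It lay at 9.37, 9.69, 8.88 and 9.40 with the oncogene on and 6.99, 7.06, 7.43 and 7.13 at 48 h. It fell by 2.18 ± 0.18 (SE, adjusted p = 2.43e-05), and the groups were separated by more than 1 log2 unit. Adss, of AMP synthesis, fell by 1.13 ± 0.24 (SE, adjusted p = 0.00649), and the mitochondrial folate enzyme gene Mthfd2 by 0.88 ± 0.16 (SE, adjusted p = 0.0031). The pentose phosphate and hexosamine list showed 2 rises, Rpe (0.50) and Ogt (0.47), and 0 falls among 12 tested, with a median of 0.02.

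Cholesterol synthesis was lower at 48 h than with the oncogene on and lower than at 24 h. Against the on tumors 9 of 12 tested genes fell and 0 rose, with a median of -0.61, and 6 fell within the first BeadChip. Fdps, farnesyl diphosphate synthase, lay at 10.09, 9.35, 9.17 and 9.82 with the oncogene on and 8.31, 8.45, 8.52 and 8.34 at 48 h. It fell by 1.2 ± 0.17 (SE, adjusted p = 0.000647). Msmo1, a sterol demethylating oxidase, fell by 1.0 ± 0.14 (SE, adjusted p = 0.000523), and Lss, lanosterol synthase, by 0.77 ± 0.13 (SE, adjusted p = 0.00183). Against 24 h, 9 of 12 were lower at 48 h, in a comparison in which 13.2% of all genes were lower. Within the second BeadChip, which holds 48 h replicates 3 and 4 and the 24 h tumors, 5 were lower and the median was -0.74. The letters CCAAT, the core of the NF-Y site, were present in 10 of 10 cholesterol genes with a promoter entry against 41.06% of all genes. The letters TCACNCCAC of a sterol regulatory element, searched on both strands, were in 0 of 10 against 1.44%.

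Fat metabolism was mixed. In fatty acid synthesis 5 of 17 genes fell (3 within the first BeadChip) and 0 rose, among them Acsl3 (-0.78 ± 0.19, adjusted p = 0.0124), the elongase Elovl1 (-0.73 ± 0.16, adjusted p = 0.00881) and the lipogenic regulator Srebf1 (-0.66 ± 0.14, adjusted p = 0.00722). In fatty acid oxidation 2 rose and 2 fell of 15. Ppargc1a, a coactivator of mitochondrial genes, rose by 1.17 ± 0.15 (SE, adjusted p = 0.000395) and lay 1.21 (adjusted p = 0.000575) above 24 h, while the lipid droplet coat gene Plin2 fell by 1.18 ± 0.28 (SE, adjusted p = 0.0107). Of the enzymes of mitochondrial oxidation, Hadhb rose (0.52) and Acadl fell (-0.69). Oxidative phosphorylation showed 1 rise (Cox4i1, 0.30) and 1 fall of 20, and the TCA cycle 2 rises (Fh1, 0.63, and Suclg1, 0.33) and 1 fall (Idh1, -0.51) of 16.

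**Figure D3:**
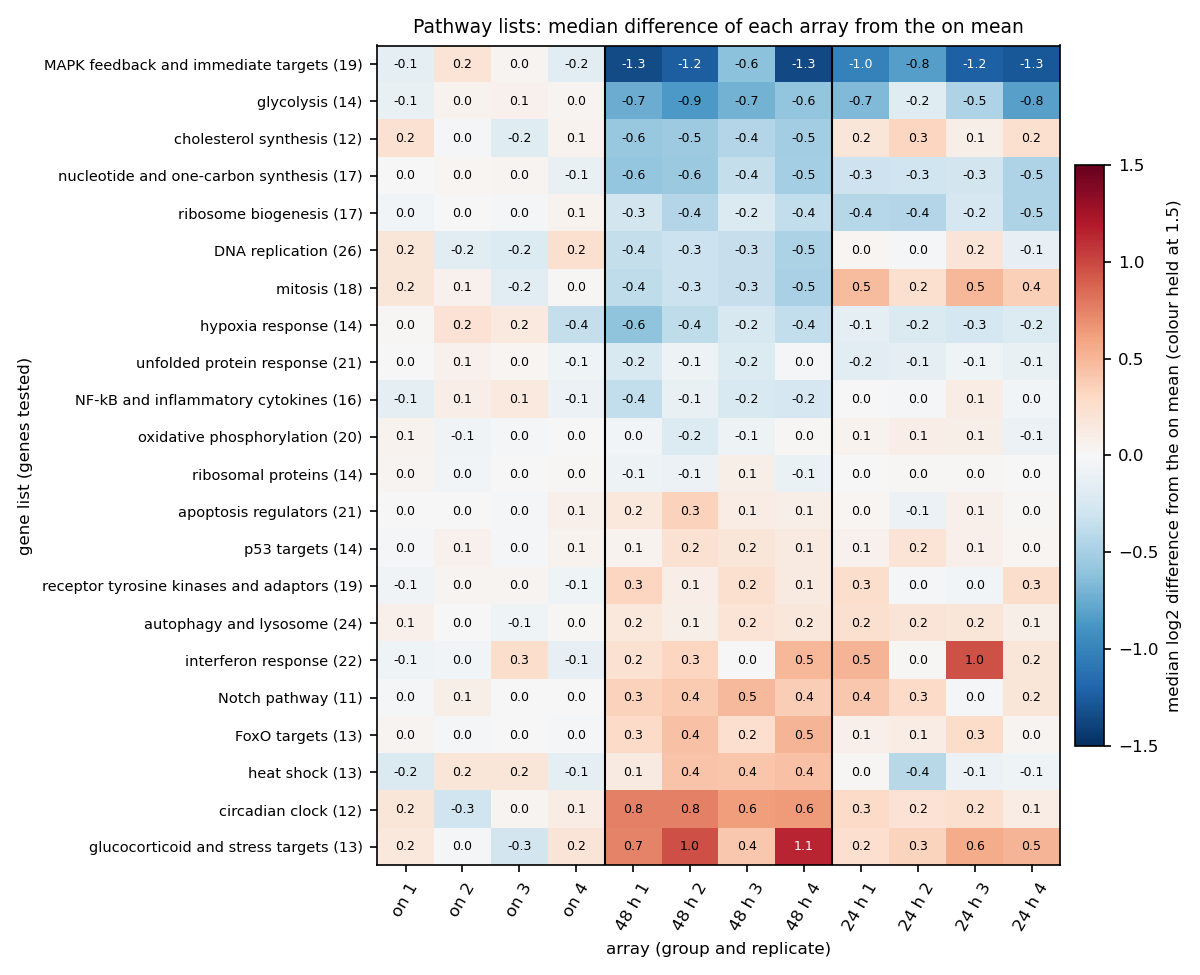
Median log2 difference from the on mean over the tested genes of the pathway lists (rows, number of genes in brackets) on each of the 12 arrays (columns), with colour held at 1.5. The MAPK row stands at -1.34, -1.24, -0.61 and -1.35 in the 4 tumors at 48 h, and the cholesterol and mitosis rows are below 0 at 48 h and above 0 at 24 h.

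Among 26 tested DNA replication genes 9 fell and 0 rose, with a median of -0.37. Mcm2 and Mcm3 encode subunits of the replicative helicase. Mcm3 lay at 5.98, 5.86, 6.02 and 6.12 with the oncogene on and 5.23, 5.16, 4.98 and 4.98 at 48 h, and fell by 0.91 ± 0.11 (SE, adjusted p = 0.000245). Mcm2 fell by 0.92 ± 0.15 (SE, adjusted p = 0.00168), and Tk1, thymidine kinase 1, by 0.90 ± 0.19 (SE, adjusted p = 0.00585). Within the first BeadChip 2 of the 26 were called lower, where 7.3% of all genes were, with a median of -0.30, and Tk1 was not among them, at -0.68 (adjusted p = 0.0728).

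Mitosis genes were lower at 48 h than with the oncogene on, and more of them were lower than at 24 h. Of 18 tested, 9 were lower than with the oncogene on and 0 higher (median -0.37). Cdk1, the kinase that drives entry into mitosis, lay at 7.0, 6.75, 6.63 and 6.33 with the oncogene on and 5.95, 6.20, 6.30 and 5.82 at 48 h. It fell by 0.61 ± 0.16 (SE, adjusted p = 0.02), and its difference from 24 h was -1.29 (adjusted p = 0.000699), when it had been above the on mean by 0.67. Cdc20, an activator of the anaphase-promoting complex, fell by 0.62 ± 0.14 (SE, adjusted p = 0.00788) and Prc1, of the spindle midzone, by 0.55 ± 0.15 (SE, adjusted p = 0.0222). The count against the on tumors depended on single arrays, with 3 lower without on replicate 1, and 1 within the first BeadChip at a similar median of -0.38. Against 24 h 15 of 18 were lower, and 6 within the second BeadChip at a median of -0.71.

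The promoters of Cdk1 and Cdc20 are shown because most mitosis genes hold the letters TTTGAA, the cell-cycle genes homology region at which the DREAM and B-MYB complexes act. On either strand these letters occurred in 13 of 16 mitosis genes with an entry against 20.23% of all genes, and CCAAT in 11 of 16 against 41.06%. Capitals mark TTTGAA on either strand. Windows and build are as above, and the first match begins -71 bases from the start in Cdk1 and -18 in Cdc20.
Cdk1 (chr10:69352863-69353162, minus strand): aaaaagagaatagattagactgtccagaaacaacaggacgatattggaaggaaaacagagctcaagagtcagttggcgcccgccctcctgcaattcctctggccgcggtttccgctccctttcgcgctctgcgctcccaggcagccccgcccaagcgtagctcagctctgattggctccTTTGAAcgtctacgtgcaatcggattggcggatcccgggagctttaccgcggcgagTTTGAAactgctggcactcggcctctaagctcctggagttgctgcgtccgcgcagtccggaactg
Cdc20 (chr4:118437294-118437593, minus strand): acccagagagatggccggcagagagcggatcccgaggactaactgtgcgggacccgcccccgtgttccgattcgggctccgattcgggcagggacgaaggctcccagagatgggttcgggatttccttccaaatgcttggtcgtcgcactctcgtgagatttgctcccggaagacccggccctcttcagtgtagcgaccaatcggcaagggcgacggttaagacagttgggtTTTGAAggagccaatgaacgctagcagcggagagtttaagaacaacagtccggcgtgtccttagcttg

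Regulators of G1 and quiescence moved both ways, 3 up and 2 down of 21. Cdkn1c, the cyclin-dependent kinase inhibitor p57, lay at 8.88, 8.75, 8.45 and 8.16 with the oncogene on and 9.91, 10.05, 9.51 and 10.40 at 48 h. It rose by 1.41 ± 0.21 (SE, adjusted p = 0.000931) with no overlap. Klf6 rose by 0.51 and Ccng2, a cyclin that restrains proliferation, by 0.49. Cdk4, the partner of cyclin D1, fell by 0.48 ± 0.11 (SE, adjusted p = 0.00996), and the transcription factor gene Klf4 by 1.13 ± 0.29 (SE, adjusted p = 0.0167).

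Genes that build ribosomes fell in 9 of 17 cases with 0 rises and a median of -0.41, and 4 were lower within the first BeadChip at the same median (-0.41). Nhp2, a protein of small nucleolar ribonucleoproteins, fell by 0.84 ± 0.16 (SE, adjusted p = 0.00331), Pes1, of large subunit maturation, by 0.74 ± 0.14 (SE, adjusted p = 0.00337), and Nop56 by 0.64 ± 0.16 (SE, adjusted p = 0.0152). Ribosomal protein genes themselves showed 1 rise (Rpl22, 0.33) and 2 falls (Rplp0, -0.50, and Rps2, -0.32) of 14. Translation factors and tRNA synthetases fell in 5 of 19, including Eif3b (-0.70 ± 0.15, adjusted p = 0.00617), Eif5a (-0.56 ± 0.12, adjusted p = 0.00693) and Vars (-0.55 ± 0.11, adjusted p = 0.006). Of 8 amino acid transporters 1 rose, Slc3a2 (0.76 ± 0.19, adjusted p = 0.0137).

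Survival genes were divided. Of 21 tested apoptosis regulators 6 rose and 4 fell, and both groups held inhibitors and promoters of cell death. Among activators, Bik rose by 1.03 ± 0.18 (SE, adjusted p = 0.00222), with values of 7.95, 8.02, 8.26 and 8.75 with the oncogene on and 9.5, 9.49, 8.94 and 9.18 at 48 h, and Bbc3, which encodes PUMA, by 0.78 ± 0.16 (SE, adjusted p = 0.00463). Of the protectors, Mcl1 rose by 0.68 ± 0.12 (SE, adjusted p = 0.00244) and Bcl2l1, which encodes BCL-XL, fell by 1.02 ± 0.21 (SE, adjusted p = 0.00545), from 9.42, 9.78, 9.58 and 9.27 to 8.03, 8.93, 8.72 and 8.27. Cycs, cytochrome c (-0.47), and the initiator caspase gene Casp8 (-0.36) also fell. Of 14 p53 targets 4 rose, with Sesn1 (0.88), Sesn2 (0.82) and Trp53inp1 (0.82) ahead, and 1 fell, Zmat3 (-0.44).

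Targets of the FoxO factors, which growth factor signalling restrains, rose in 6 of 13 cases and fell in 0 (median 0.49), and within the first BeadChip 3 were higher and 2 lower. Txnip, an inhibitor of glucose uptake, lay at 12.77, 12.80, 12.46 and 13.27 with the oncogene on and 14.41, 14.35, 13.88 and 14.16 at 48 h. It rose by 1.37 ± 0.16 (SE, adjusted p = 0.000269). Pdk4, which slows the entry of pyruvate into the TCA cycle, rose by 1.44 ± 0.32 (SE, adjusted p = 0.00805), with replicates 2 and 4 the highest at 7.64, 8.35, 6.81 and 8.61 at 48 h. Pik3ip1, an inhibitor of PI3 kinase, rose by 0.70 ± 0.20 (SE, adjusted p = 0.029). Without replicate 3 the list had 6 higher and 2 lower, and without on replicate 2 it had 3 higher.

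Clock genes were higher at 48 h. Of 12 tested 7 rose and 1 fell, with a median of 0.80, and 4 rose within the first BeadChip. Per1, a repressor of the clock, lay at 9.98, 9.14, 9.52 and 9.77 with the oncogene on and 10.95, 11.36, 10.30 and 11.01 at 48 h. It rose by 1.30 ± 0.22 (SE, adjusted p = 0.00204) and its difference from 24 h was 0.93 (adjusted p = 0.0104). Per3 rose by 1.09 ± 0.26 (SE, adjusted p = 0.0126) and Cry2 by 1.0 ± 0.16 (SE, adjusted p = 0.00162), while Bhlhe40, another repressor, fell by 0.79 ± 0.17 (SE, adjusted p = 0.00822). Neither Clock nor Arntl, the activators, was called (-0.17 and 0.22). The labels give no hour of day for the tumors, and its part was not tested.

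Targets of glucocorticoids and stress rose in 8 of 13 cases and fell in 1, with a median of 1.02. Pdk4 and Per1, described with the FoxO and clock genes, were among these rises, so the counts of these lists overlap. Zbtb16, a transcription factor induced by glucocorticoids, lay at 6.51, 4.70, 4.78 and 5.69 with the oncogene on and 6.61, 8.41, 6.16 and 6.80 at 48 h. It rose by 1.57 ± 0.46 (SE, adjusted p = 0.03), with detection on 2 of the 4 on arrays, but replicate 2 stood well above the other 48 h tumors and the groups overlapped. Lcn2 was the 1 member that fell and is described with the inflammatory genes. Within the first BeadChip 6 rose with a median of 0.73. Without on replicate 3 the count was 4, and without the 4 arrays of highest muscle signal the median was 0.48.

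Heat shock genes rose in 4 of 13 cases and fell in 1, but no rise passed within the first BeadChip. Hspa1a, an inducible HSP70 with a near-identical copy, Hspa1b, that could share its probe, had values of 5.87, 7.95, 7.32 and 6.41 with the oncogene on and 7.82, 10.43, 8.21 and 10.29 at 48 h. It rose by 2.30 ± 0.62 (SE, adjusted p = 0.0202), led by replicates 2 and 4. Dnajb1, an HSP40 co-chaperone, rose by 1.07 ± 0.24 (SE, adjusted p = 0.0084), and Hspb1, a small heat shock protein, by 0.76 ± 0.25 (SE, adjusted p = 0.0451). Dnaja1, another co-chaperone, fell by 1.61 ± 0.20 (SE, adjusted p = 0.000301) in all 4 tumors. Without on replicate 1, 1 heat shock gene was higher. Among the 48 h tumors, the highest in Hspa1a were also those with the most muscle signal, and the part of either in these rises was not tested.

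Of 21 tested genes of the unfolded protein response 7 fell and 1 rose, with a median of -0.09 and 8 differences above 0. The falls included chaperones and disulfide isomerases of the endoplasmic reticulum. Pdia6, a disulfide isomerase, lay at 9.06, 9.01, 8.80 and 8.95 with the oncogene on and 7.72, 7.64, 8.02 and 7.59 at 48 h. It fell by 1.21 ± 0.15 (SE, adjusted p = 0.000368) with no overlap. Calr, calreticulin, fell by 1.26 ± 0.23 (SE, adjusted p = 0.00264) and Hyou1 by 0.95 ± 0.13 (SE, adjusted p = 0.000555), while Herpud1, of the degradation branch, rose by 1.02 ± 0.20 (SE, adjusted p = 0.00422). Autophagy and lysosome genes rose in 5 of 24 (3 within the first BeadChip) and fell in 0, with Ctsa, a lysosomal carboxypeptidase, at 0.94, Gabarapl2 at 0.51 and Npc1, the lysosomal cholesterol exporter, at 1.06. Npc1 was the one named gene with probes called in opposite directions, 2 higher and 1 lower. In some other named genes only part of the tested probes was called, such as 1 of 5 for Ctsa and 1 of 3 for Cycs. Among 16 NRF2 targets 2 rose, Ephx1 (0.95) and Gstm1 (0.56), and 4 fell, with Gsto1 (-1.25), Gsta4 (-1.08) and Cbr3 (-0.63) lowest.

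The called alveolar markers differed in direction by cell type. Of 14 tested alveolar type 2 markers 6 fell and 0 rose (median -0.20), and of 12 type 1 markers 7 rose and 0 fell (median 0.55). Of the 14 type 2 differences 5 were above 0, and by array the type 2 median at 48 h was -0.21, -0.33, 0.04 and -0.44. Without the 4 arrays of highest muscle signal, 1 type 2 marker was lower and 1 type 1 marker higher, with medians of -0.08 and 0.61. At 24 h the type 1 median against the on tumors was 0.86, and at 48 h the endothelial and fibroblast medians were 0.63 and 0.57. Lamp3, a lamellar body protein of type 2 cells, lay at 12.65, 12.68, 12.46 and 12.26 with the oncogene on and 10.35, 10.70, 11.48 and 10.57 at 48 h. It fell by 1.73 ± 0.21 (SE, adjusted p = 0.000302), and its difference from 24 h was -1.44 (adjusted p = 0.00135). Cxcl15, a lung-restricted chemokine, was at 14.75, 14.49, 14.41 and 14.41 with the oncogene on and 12.60, 12.49, 14.29 and 12.49 at 48 h. It fell by 1.55 ± 0.33 (SE, adjusted p = 0.00626), but replicate 3 lay just below the lowest on value. The surfactant gene Sftpb fell by 0.79 ± 0.13 (SE, adjusted p = 0.0019), whereas Sftpc (0.15), Sftpd (0.08) and Abca3 (0.05) were not called.

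Hopx, Rtkn2 and Akap5 are named here because they were the 3 largest called rises among the type 1 markers. Hopx, a homeodomain protein of type 1 cells, lay at 11.01, 10.49, 10.76 and 10.84 with the oncogene on and 12.13, 12.06, 11.96 and 12.51 at 48 h. It rose by 1.39 ± 0.17 (SE, adjusted p = 0.000261). Rtkn2, a marker of type 1 cells, rose by 1.31 ± 0.28 (SE, adjusted p = 0.00649), from 6.71, 6.81, 6.88 and 7.15 to 8.11, 8.10, 8.15 and 8.43, and the anchoring protein gene Akap5 by 0.84 ± 0.17 (SE, adjusted p = 0.00444). Cldn18, a tight junction protein of alveolar epithelium, rose by 0.62 ± 0.12 (SE, adjusted p = 0.00416). Pdpn (0.03), Aqp5 (-0.07) and Ager (0.39), which also define the type, were not called. Within the first BeadChip 5 type 1 markers rose and 6 type 2 markers fell.

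Among lung epithelial transcription factors 2 rose and 4 fell of 17. Nkx2-1, the master regulator of the lung lineage, rose by 0.58 ± 0.12 (SE, adjusted p = 0.00649), and Hopx was the other rise. Cebpa, a regulator of type 2 maturation, fell by 0.87 ± 0.16 (SE, adjusted p = 0.00347). Sox9, a gene of distal lung progenitors, lay at 6.44, 7.78, 9.86 and 8.36 with the oncogene on and 5.69, 6.72, 6.97 and 5.22 at 48 h. It fell by 1.96 ± 0.64 (SE, adjusted p = 0.0451), with overlap and a wide spread among the on tumors, and it did not pass within the first BeadChip, where its difference was -1.91 (adjusted p = 0.149).

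Simple-epithelium keratins fell together. Krt19 lay at 9.77, 10.17, 10.03 and 10.09 with the oncogene on and 8.19, 8.11, 8.37 and 8.02 at 48 h. It fell by 1.84 ± 0.11 (SE, adjusted p = 4.26e-06), and the groups were far apart. Krt8 fell by 1.11 ± 0.16 (SE, adjusted p = 0.000626) and Krt7 by 1.09 ± 0.15 (SE, adjusted p = 0.000642). In the whole adhesion list 4 rose and 5 fell of 21 (2 and 4 within the first BeadChip), and the rises included the junction gene Tjp1 (0.85 ± 0.16, adjusted p = 0.00321) and Zeb1, a transcription factor of mesenchymal cells (0.57 ± 0.14, adjusted p = 0.014). Of 10 mucins and secreted products 4 fell (2 within the first BeadChip, where 1 rose), among them the membrane mucins Muc20 (-1.5 ± 0.19, adjusted p = 0.000411) and Muc4 (-1.11 ± 0.14, adjusted p = 0.000304) and the chitinase-like Chil1 (-1.05 ± 0.33, adjusted p = 0.0393). Of 8 gastric and gut genes 1 fell, the gastrokine Gkn2 (-2.29 ± 0.71, adjusted p = 0.0373), detected on 2 arrays at 48 h, and 1 rose, the galectin Lgals4 (0.80 ± 0.16, adjusted p = 0.00415).

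Airway markers were high in some 48 h tumors. The median difference of 10 tested ciliated cell genes was 0.94, but 1 was called higher, Ccdc113, and 1 lower, Tubb4b (-0.58 ± 0.10, adjusted p = 0.00194). By array, the ciliated median stood at 0.51, 1.71, -0.06 and 1.69 at 48 h against -0.14, 0.14, 0.55 and -0.53 with the oncogene on, so replicates 2 and 4 were high, replicate 3 was not, and the on tumors also varied. Ccdc113, a ciliary protein, lay at 5.51, 5.28, 6.11 and 4.71 with the oncogene on and 6.49, 7.42, 5.72 and 7.5 at 48 h, and rose by 1.38 ± 0.38 (SE, adjusted p = 0.0223). Without replicate 3, 8 ciliated and 5 of 7 club cell genes were higher, against 1 and 1 with it. Without the 4 arrays of highest muscle signal the medians were 0.24 for ciliated and 0.16 for club cell genes, and the part of neighbouring tissue in these rises was not tested.

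**Figure D4:**
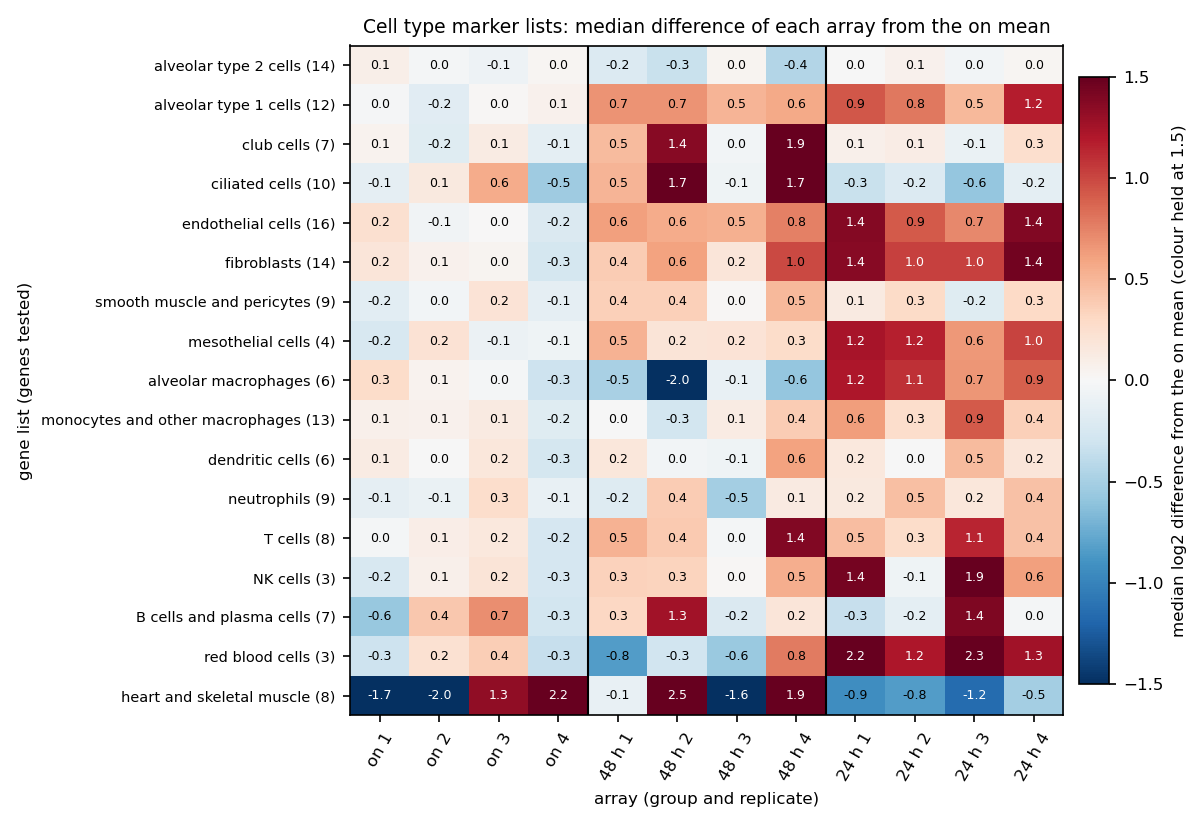
Median log2 difference from the on mean over the tested genes of the cell type lists (rows) on each of the 12 arrays (columns), with colour held at 1.5. Club cell, ciliated cell and muscle rows are high on 48 h replicates 2 and 4, and the alveolar type 1 and endothelial rows are above 0 on all 4 arrays at 48 h.

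Endothelial genes rose, 10 of 16 with 1 fall and a median of 0.63, and 6 rose within the first BeadChip. Sox18, a vascular transcription factor, lay at 8.41, 7.94, 8.16 and 8.22 with the oncogene on and 9.33, 9.14, 9.57 and 9.18 at 48 h. It rose by 1.12 ± 0.15 (SE, adjusted p = 0.000465). Ramp2, a receptor component that stabilises vessels, rose by 0.91 ± 0.20 (SE, adjusted p = 0.00771), and Lyve1, a receptor of lymphatic endothelium, by 1.30 ± 0.30 (SE, adjusted p = 0.00951). Car4, of alveolar capillaries, was the exception and fell by 1.29 ± 0.30 (SE, adjusted p = 0.00993), and its difference from 24 h was -2.29 (adjusted p = 0.000822). At 24 h the median of the list against the on tumors was 1.15. At 48 h 9 of 16 genes were lower than at 24 h, and 2 were lower within the second BeadChip.

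Notch pathway genes rose in 5 of 11 cases with 0 falls (median 0.39). The targets Hey1 and Heyl rose by 0.96 ± 0.16 (SE, adjusted p = 0.00202) and 0.73 ± 0.11 (SE, adjusted p = 0.0012). Notch4, a receptor of endothelial cells, lay at 8.83, 8.79, 8.96 and 8.86 with the oncogene on and 9.75, 10.11, 9.41 and 9.79 at 48 h, and rose by 0.90 ± 0.16 (SE, adjusted p = 0.00231). Notch3, of smooth muscle, rose by 0.45 ± 0.14 (SE, adjusted p = 0.0376). The endothelial genes rose on the same arrays, and the part of cell numbers in the Notch values was not tested.

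Fibroblast genes rose in 5 of 14 cases, a count that single arrays moved from 1 without on replicate 2 to 8 without 48 h replicate 3, with 2 within the first BeadChip. Dpt, a matrix protein, rose by 1.17 ± 0.39 (SE, adjusted p = 0.0477), and Mfap4, of elastic fibres, by 1.02 ± 0.32 (SE, adjusted p = 0.0372), and the difference of Mfap4 from 24 h was -2.10 (adjusted p = 0.00148). In the list of matrix genes 6 rose and 2 fell of 23. Within the first BeadChip 2 rose and 1 fell, and without on replicate 4 1 rose. Timp3, an inhibitor of metalloproteinases, lay at 11.22, 10.99, 10.87 and 11.10 with the oncogene on and 12.27, 12.10, 12.13 and 12.36 at 48 h. It rose by 1.17 ± 0.11 (SE, adjusted p = 8.15e-05), and Col3a1 (0.94) and Mmp2 (0.80) rose as well. Fn1, fibronectin, fell by 0.95 ± 0.31 (SE, adjusted p = 0.0423). Smooth muscle and pericyte genes showed 1 rise of 9, with 0 within the first BeadChip and 4 without replicate 3.

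**Figure D5:**
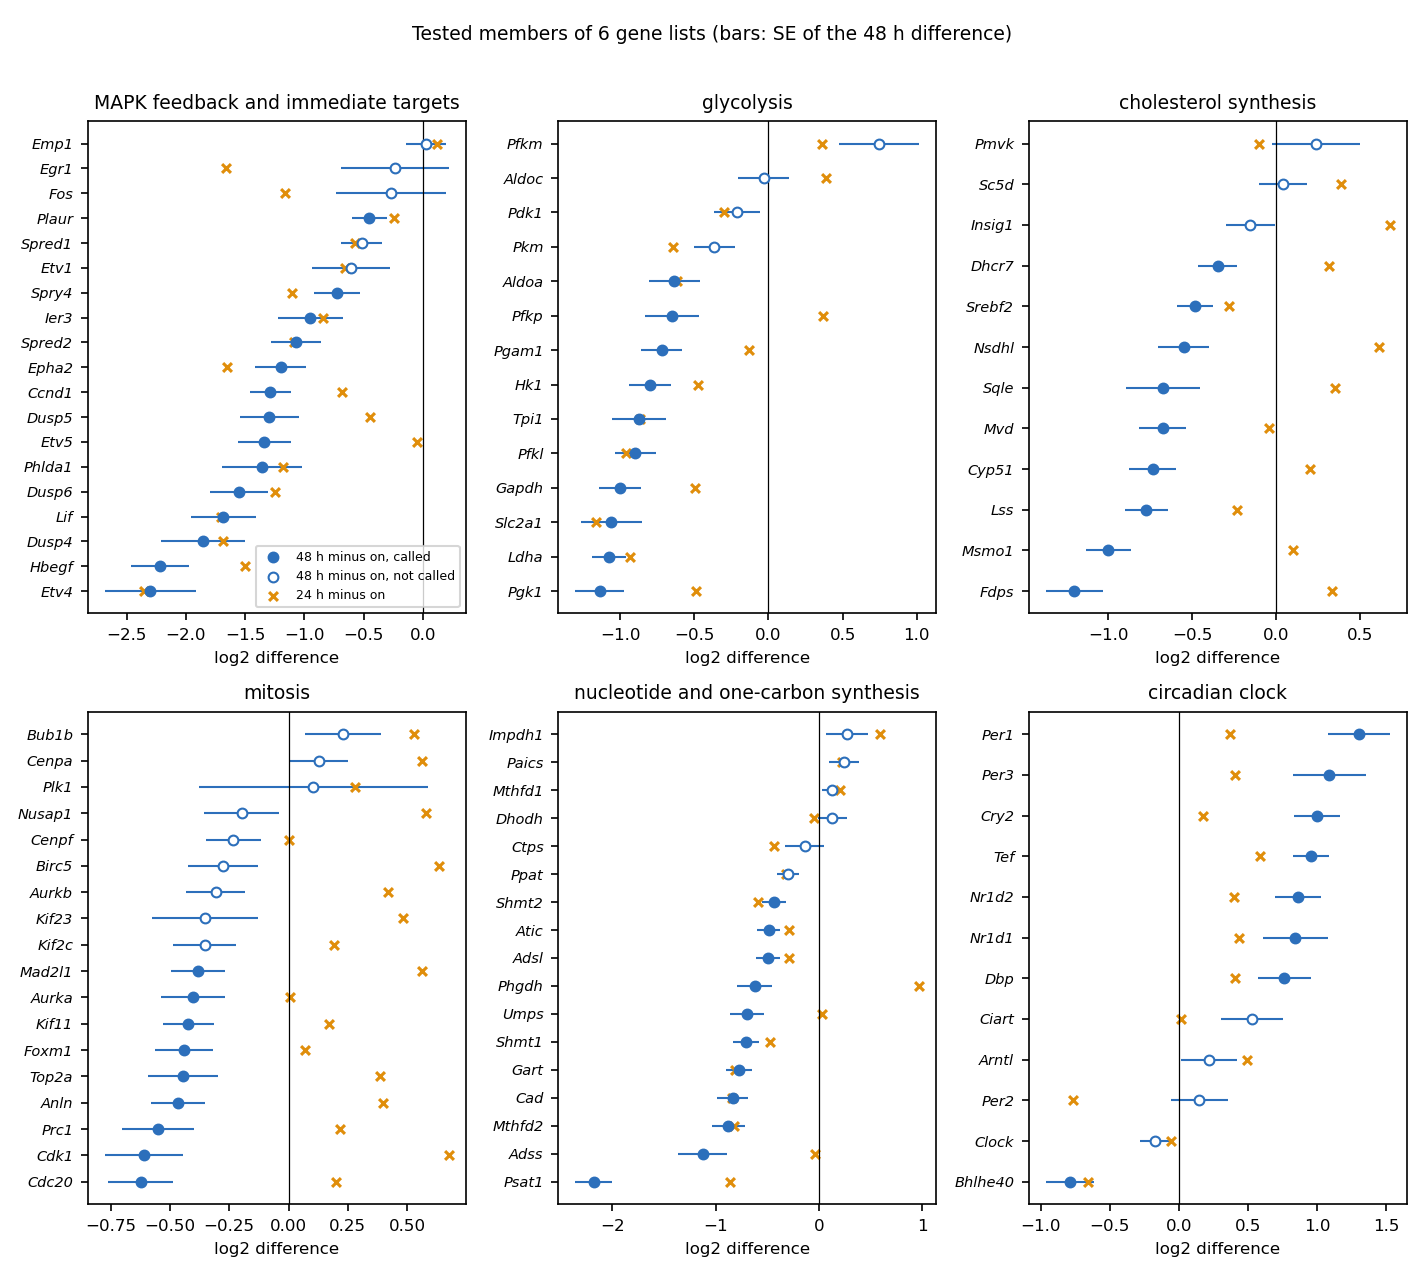
Log2 differences of the tested members of 6 lists. Circles are 48 h minus on with bars of 1 SE, filled where called, and crosses are 24 h minus on. The 9 called mitosis genes lie below 0 at 48 h, and 7 clock genes were called above 0.

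Inflammatory signals fell in 4 of 16 cases with 0 rises (median -0.19). Lcn2, the iron-binding protein lipocalin 2, lay at 13.69, 13.75, 13.70 and 13.97 with the oncogene on and 11.22, 12.83, 12.35 and 11.14 at 48 h. It fell by 1.89 ± 0.34 (SE, adjusted p = 0.00271), and all 48 h tumors were below the on tumors. Cxcl1 and Cxcl15, described above, and Il1b were the other falls. Of 9 tested neutrophil genes 2 fell and 0 rose, with a median of -0.05 and 3 differences above 0, up to 0.72. The falls were those of the chemokine receptor gene Cxcr2 and of Retnlg (-1.22 ± 0.37, adjusted p = 0.0332). Cxcr2 lay at 5.39, 7.21, 6.31 and 5.28 with the oncogene on and 4.39, 4.42, 4.38 and 4.33 at 48 h and was undetected in all 4 tumors at 48 h, so it was at least 2.44-fold lower (adjusted p = 0.0054). Neither passed within the first BeadChip, where the differences were -1.65 (adjusted p = 0.067) and -1.27 (adjusted p = 0.141).

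Macrophage lists differed. Of 6 tested alveolar macrophage genes 2 fell, Mrc1 and Car4, and 0 rose with a median of -0.90, against 0.96 at 24 h. Car4, described above as an endothelial gene, is a member of both lists. Compared with 24 h, 5 of 6 were lower at 48 h, and 3 were lower within the second BeadChip. Mrc1, the mannose receptor, lay at 10.03, 9.81, 9.70 and 9.39 with the oncogene on and 9.14, 7.78, 9.30 and 9.06 at 48 h, and fell by 0.91 ± 0.27 (SE, adjusted p = 0.0328), and its difference from 24 h was -1.64 (adjusted p = 0.0022). Of 13 tested genes of monocytes and other macrophages 2 fell and 0 rose, and 8 of the 13 differences were above 0 with a median of 0.08. Cd14, the lipopolysaccharide co-receptor, fell by 0.83 ± 0.14 (SE, adjusted p = 0.00162) and Cx3cr1, the fractalkine receptor, by 0.82 ± 0.21 (SE, adjusted p = 0.0177). Among 14 antigen presentation genes 3 fell, Ciita, the regulator of MHC class II (-0.67), H2-DMb1 (-0.45) and H2-DMa (-0.39), and 0 of the 14 were lower within the first BeadChip.

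Interferon-response genes rose in 4 of 22 cases with 0 falls (median 0.27), where 11.9% of all genes rose. Ifit2 lay at 6.08, 5.86, 5.81 and 5.88 with the oncogene on and 7.15, 6.94, 6.21 and 7.05 at 48 h. It rose by 0.93 ± 0.18 (SE, adjusted p = 0.00381), with replicate 3 nearest to the on tumors. Usp18, which limits interferon signalling, rose by 1.09 ± 0.25 (SE, adjusted p = 0.00912) and Oasl2 by 0.84 ± 0.23 (SE, adjusted p = 0.0215). Of 8 T cell genes 2 rose, Il7r, the interleukin 7 receptor (1.16 ± 0.33, adjusted p = 0.0246), and the signalling adaptor Lat (0.77 ± 0.20, adjusted p = 0.0196), and neither passed without on replicate 2. In the complement and coagulation list 2 rose, Thbd, thrombomodulin (0.88 ± 0.20, adjusted p = 0.0102), and C2 (0.79 ± 0.26, adjusted p = 0.0451), and 2 fell. Plau, urokinase, lay at 8.28, 8.17, 8.17 and 8.53 with the oncogene on and 6.74, 6.35, 6.97 and 5.94 at 48 h. It fell by 1.79 ± 0.29 (SE, adjusted p = 0.00155), and F7, coagulation factor VII, by 0.74 ± 0.19 (SE, adjusted p = 0.0149).

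Other signalling lists were mixed. In the TGF-beta and BMP list 3 rose and 4 fell of 17. Id2, an inhibitor of differentiation, lay at 9.64, 9.47, 9.53 and 9.25 with the oncogene on and 7.58, 7.43, 8.67 and 7.80 at 48 h. It fell by 1.60 ± 0.21 (SE, adjusted p = 0.00049), and Id1 fell by 0.77 ± 0.24 (SE, adjusted p = 0.0356) and the ligand gene Bmp4 by 0.98 ± 0.23 (SE, adjusted p = 0.0115), with replicate 3 highest among the 48 h tumors in all 3. Ccn2, which encodes connective tissue growth factor, rose by 0.72 ± 0.13 (SE, adjusted p = 0.00239), Skil by 0.54 ± 0.10 (SE, adjusted p = 0.00281) and the receptor gene Bmpr2 by 0.31 ± 0.09 (SE, adjusted p = 0.0331). In the Wnt list 2 rose, including Dkk3 (0.75 ± 0.16, adjusted p = 0.00763), and 2 fell, including the ligand gene Wnt7b (-0.84 ± 0.14, adjusted p = 0.00208). Of 11 genes in the YAP list 2 rose, Ccn2, also counted in the TGF-beta and BMP list, and Tead1 (0.70 ± 0.14, adjusted p = 0.00496). Of 13 chromatin regulators 2 rose, Kdm6b (0.58) and Dnmt3b (0.31), and 1 fell, Cbx5 (-0.57), none of which passed within the first BeadChip.

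The state at 48 h also differed from that at 24 h, with 5514 of 20022 probes (27.5%) called. By genes, 1515 (13.8%) were higher and 1441 (13.2%) lower at 48 h. The 48 h replicates 1 and 2 lay on the other BeadChip, and within the second BeadChip, which leaves 2 tumors at 48 h, 413 probes were called. Mfsd2a differed from its 24 h level by -2.93 (adjusted p = 0.000149), and by -3.17 within the second BeadChip. Hspa1a differed by 2.74 (adjusted p = 0.00799), and by 2.80 within that BeadChip. Of the DNA replication list 13 of 26 were lower than at 24 h, beside the mitosis, cholesterol, endothelial and alveolar macrophage counts given above. The MAPK list had 4 lower and 1 higher of 19, and glycolysis 4 lower of 14. Within the second BeadChip 3 DNA replication genes, 0 MAPK genes and 1 glycolysis gene were lower, where 162 of all 10947 genes were.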

How the data were processed

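Expression was measured in 12 mouse lung tumor samples on Illumina BeadChips. The deposited intensity values are mean bead intensities per probe without normalization, and the deposited detection p-values compare each probe with negative controls, per the file headers. A second deposited table holds the authors' log2 values, which fit a log2 taken a second time, and it served only as an alternative. A further 48 columns deposited with the intensities were not used.

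Intensities were corrected and quantile normalized with neqc (limma 3.58.1, R 4.3.3, offset 16) over 12 arrays. Probes with a detection p below 0.05 on at least 4 of the 8 on and 48 h arrays were kept. A limma model of the 3 groups was fitted to all 12 arrays, and probes with a Benjamini-Hochberg adjusted p below 0.05 were called. The procedure was also run on artificial data with independent normal noise, without a BeadChip effect or an outlying array. That run therefore cannot show how either affects the calls. The number of arrays limits the precision. The platform annotation named 1 gene for 34885 probes, several for 18 and none for 10378, and 34807 were matched to current symbols by gene ID. A gene was represented by its probe of highest mean. Promoters were RefSeq sequences of GRCm38.p6, searched for the letters of several motifs in several lists, of which only some are printed above. ETS letters (CCGGAAGT) occurred in 0 of 12 MAPK genes with an entry, against 4.31% of all genes. AP-1 letters (TGANTCA) occurred in 3 of 12 MAPK genes against 8.97%, and E-box letters (CACGTG) in 3 of 10 clock genes against 8.09%.

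The genes named were the 15 largest called rises and the 15 largest falls without overlap, up to 3 called rises and 3 falls of each list, and all tested MAPK genes. Other list members are named to complete a count, after their values were seen. Members and lists were chosen with earlier results of these data known. The sample titles give array positions, and the replicate numbers used here follow their order. The correlation of same-numbered deviations ranged from -0.30 to 0.02. It cannot show whether tumors were paired in another way. The oncogene itself is not reported here.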

Additional observations from a re-analysis of the deposited data

Results flagged for a closer look

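On the log2 intensity scale, 24 of 398 groups of 4 arrays tested over the named genes had 1 array far from the other 3, by the gap relative to the group's range. Chance alone gives about 1 in 20 groups. 11 of the 24 were 48 h replicate 3, whose values were Amy2a5 7.42, Cebpa 8.86, Cxcl15 14.29, Etv1 8.49, Fam184a 6.85, Ldha 12.56, Nhp2 9.56, Prm1 6.93, Rpe 5.92, Tjp1 8.46 and Tnfsf9 7.79. On 48 h replicate 1 the outlying values were Akap5 10.62 and Hyou1 6.04. On 48 h replicate 2 the outlying values were Mrc1 7.78, Pes1 7.52 and Rpl22 10.31. On 48 h replicate 4 the outlying values were Col3a1 8.79, Ogt 10.61 and Rtkn2 8.43. On oncogene-on replicate 1 the outlying values were Mthfd2 8.11 and Tpsab1 7.95. On oncogene-on replicate 3 the outlying values were Osr2 4.84 and Suclg1 11.39. On oncogene-on replicate 4 the outlying value was Dmkn 12.28.

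In 94 of the named genes the level at 48 h differed from that at 24 h by limma at an adjusted p below 0.05, 58 lower and 36 higher at 48 h. The 24 h tumors all lay on the second BeadChip and 48 h replicates 1 and 2 on the first, and over all probes the calls numbered 5514 in all arrays and 413 within the second BeadChip. Values are log2 differences, 48 h minus 24 h.

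Some of these genes were lower at 48 h than at 24 h. The log2 difference was -2.93 for Mfsd2a, -2.29 for Car4, -2.10 for Mfap4, -1.70 for Fn1, -1.67 for Cxcl15, -1.64 for Mrc1, -1.54 for Fdps, -1.44 for Plin2, -1.44 for Lamp3 and -1.31 for Psat1. It was next -1.29 for Retnlg, -1.29 for Etv5, -1.29 for Cdk1, -1.27 for Thbd, -1.17 for Dmkn, -1.15 for Mmp2, -1.13 for Tnfrsf22, -1.10 for Msmo1, -1.08 for Adss and -1.08 for Lcn2. It then was -0.97 for Calr, -0.92 for Id2, -0.91 for Col3a1, -0.91 for Sp5, -0.90 for P4ha1, -0.89 for Pcsk6, -0.85 for Dusp5, -0.83 for Acadl, -0.83 for Idh1 and -0.82 for Cdc20. It was smaller at -0.82 for Cx3cr1, -0.81 for Ctsa, -0.79 for Mcm3, -0.78 for Tk1, -0.77 for Prc1, -0.73 for Nop56, -0.72 for Hbegf, -0.67 for Wnt7b, -0.67 for F7 and -0.65 for Pgk1. Below these it was -0.64 for Ciita, -0.64 for Gsto1, -0.61 for Ccnd1, -0.61 for Ramp2, -0.59 for Pes1, -0.59 for Eif5a, -0.57 for Ifit2, -0.55 for Cdk4, -0.54 for Pdia6 and -0.54 for Lss. The smallest values were -0.50 for Elovl1, -0.49 for H2-DMa, -0.48 for Cbr3, -0.45 for Nhp2, -0.44 for Mcm2, -0.44 for Krt19, -0.38 for Casp8 and -0.38 for H2-DMb1.

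Other genes were higher at 48 h than at 24 h. The log2 difference was 2.74 for Hspa1a, 2.32 for Zbtb16, 1.99 for Amy2a5, 1.91 for Usp2, 1.83 for Ccdc113, 1.45 for Bcan, 1.44 for Vpreb3, 1.42 for Egr1, 1.40 for Cbr2 and 1.27 for Dnajb1. It was next 1.21 for Ppargc1a, 1.18 for Traf1, 1.08 for Osr2, 1.02 for Rasl12, 0.95 for Pdk4, 0.93 for Per1, 0.92 for Prm1, 0.90 for Mpp3, 0.88 for Sesn2 and 0.86 for Txnip. It then was 0.82 for Cry2, 0.79 for Cdkn1c, 0.76 for Hspb1, 0.68 for Herpud1, 0.68 for Notum, 0.67 for Tead1, 0.66 for Lgals4, 0.64 for Slc10a6, 0.63 for Tubb4b and 0.60 for Vegfa. It was smaller at 0.58 for Insr, 0.55 for Ephx1, 0.44 for Ogt, 0.36 for Npc1, 0.36 for Rpe and 0.33 for Timp3.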

How the results depend on the processing

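Of 4422 probes called between 48 h and on, 968 passed a test against a fold of 1.2, and leaving out 1 array at a time gave 2889 (without on replicate 2) to 4919 (without 48 h replicate 3). Without the 4 arrays of highest muscle marker signal, an alternative chosen after seeing the data that leaves 2 arrays a group, 622 were called. The other alternatives, in background correction, scaling, detection filter, BeadChip terms, array weights and the authors' value table, stayed within 1.5 times the count. The share of calls that were higher was 46.4% and ranged from 42.0% with 75th percentile scaling to 51.5% with cyclic loess. Of 5514 probes called between 48 h and 24 h, 1177 were called with the BeadChip as a fixed term, 413 within the second BeadChip, 1124 against a fold of 1.2 and 2722 without the muscle-high arrays, and leaving out 1 array gave 3586 (without 48 h replicate 2) to 5733 (without 48 h replicate 3), with 3669 without 48 h replicate 1. The cause of these changes was not tested, beyond the fewer arrays that some of them leave. Of 194 called named genes, 98 passed under every setting listed above except the muscle-high arrays and 53 also without the muscle-high arrays, and all 194 kept their direction in each. Every setting reuses arrays that entered the calls, so a kept direction is not an independent check. With the replicate block 3484 probes differed between 48 h and on, and 4577 between 48 h and 24 h. The replicate numbers follow the order of the arrays. For same-numbered on and 48 h arrays the correlations of deviations were 0.02, -0.05, -0.30 and -0.10, and 0 of 4 correlated best with their own number. Other pairings of the tumors were not tested.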

Other observations

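In detection alone, 55 probes were undetected on all 4 on arrays and detected on all 4 at 48 h, and 40 showed the opposite. Of 4188 genes with several tested probes, 16 had probes called in both directions.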
